A study of Mus musculus with 8 samples.

Results

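The lysosome genes are 39 genes chosen by symbol, with earlier results of these data known. They are the precursors *Grn* and *Psap*, 11 proteases, 8 glycosidases, 6 genes of lipid handling, 9 membrane proteins and the 3 regulators *Tfeb*, *Tfe3* and *Mitf*. All 39 are among the 25239 gene symbols measured in RNA of the mouse corpus callosum, the white matter tract between the cerebral hemispheres. Of these, 38 entered the tests among the 18123 genes whose mean reached 0.1 CPM (reads of a gene scaled to the effective size of its library). *Atp6v0d2*, the 39th, had 1 read in one library and 3 reads in another and was not tested.

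The lysosome is an acidic organelle in which hydrolases break down proteins, glycans and lipids that arrive from outside the cell, from its own membranes or by autophagy. Most of its enzymes are made as precursors, carried there by the mannose 6-phosphate route and matured by cathepsins, while a proton pump keeps the lumen acidic. The MiT/TFE transcription factors *Tfeb*, *Tfe3* and *Mitf* bind a short promoter element that many lysosome genes share. In the brain every cell type has lysosomes, and microglia, the resident macrophages, are especially rich in cathepsins and take up myelin debris.

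All mice carried the strain label C57BL/6 (by the study's methods C57BL/6J, with male sex stated for the WT mice) and were labelled either wild type (WT) or *Trpa1* -/- (TRPA1-KO, a global knockout of a calcium-permeable channel that had been backcrossed to C57BL/6J). Bilateral common carotid artery stenosis (BCAS) placed a microcoil on each common carotid artery to lower cerebral blood flow for weeks, and the sham operation left the coils out. For each label, 1 library came from sham on day 14 and 1 library each from BCAS on days 7, 10 and 14, which makes 8 libraries. The 3 days stood in for replicates of a label, so the spread within a group holds differences between days as well as between samples. By the study's methods each sample came from an individual mouse. Sham was collected on day 14 only, so for the day 7 and day 10 libraries operation and day cannot be told apart.

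Between 7896071 and 12952093 reads on genes were recovered per library, and 3 reads, the floor used here, correspond to 0.235 to 0.378 CPM. *Trpa1* itself went against the genotype labels, with 0 to 1 reads in the libraries labelled WT and 3 to 11 in those labelled TRPA1-KO. Gene counts can include exons outside a deletion, but the order of the counts is the reverse of the labels, so groups are named by label throughout and each direction below is a direction between labels. The tissue was rich in myelin transcripts, with a sum of 13288 to 17789 CPM over 12 oligodendrocyte and myelin genes in each library. The day 7 BCAS library labelled WT stood apart from the other libraries for the lysosome genes, and counts are given with and without it. In bulk tissue, fewer cells of a type and less RNA per cell cannot be told apart.

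Promoters of the lysosome genes are shown first for the element that the MiT/TFE factors recognise. RefSeq promoter sequence on GRCm38.p6, from 250 bases before to 50 bases after the start, matched 34 of the 39 genes. The letters TCACGTG, read on either strand (CACGTGA on the other), occurred in the promoters of 9 of 34 genes (26.5%) against 4.29% of 27025 symbols with a promoter. The shorter CACGTG, contained in it, occurred in 10 of 34 (29.4%) against 8.09%, and the palindrome TCACGTGA in 4 of 34 (11.8%) against 1.12%. The 9 genes were *Ctsa*, *Ctsd*, *Lgmn*, *Gaa*, *Gla*, *Glb1*, *Naglu*, *Lamp1* and *Mcoln1*. Of these, 4 were called higher with the label WT between the BCAS groups at an unadjusted limma p under 0.05 (*Ctsa*, *Ctsd*, *Lgmn* and *Naglu*). Each of the 4 had a limma adjusted p of 0.98. Windows of 30 bases are given below for these 4 and for 3 genes that were not called (*Glb1*, *Lamp1* and *Mcoln1*), with the matched letters in capitals.
Ctsa, chr2:164833749-164833778, plus strand: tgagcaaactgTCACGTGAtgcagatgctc
Ctsd, chr7:142387908-142387937, minus strand: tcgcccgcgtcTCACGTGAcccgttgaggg
Lgmn, chr12:102439124-102439153, minus strand: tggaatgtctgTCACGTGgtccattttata
Naglu, chr11:101070009-101070038, plus strand: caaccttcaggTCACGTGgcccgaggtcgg
Glb1, chr9:114401018-114401047, plus strand: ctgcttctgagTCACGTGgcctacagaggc
Lamp1, chr8:13159088-13159117, plus strand: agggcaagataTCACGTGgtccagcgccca
Mcoln1, chr8:3500462-3500491, plus strand: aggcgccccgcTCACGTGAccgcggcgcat
The first matched base lay 13 bases before the start in *Ctsa*, 99 in *Ctsd*, 50 in *Lgmn*, 74 in *Naglu*, 49 in *Glb1*, 62 in *Lamp1* and 46 in *Mcoln1*. Of the 10 genes called between the BCAS groups, 8 had a promoter in the table and 4 of these held TCACGTG. Among the 28 tested genes that were not called, 26 had a promoter and 5 held it. The shares of called and uncalled genes were not compared by a test. A match is a description of the letters in this window and not evidence of binding.

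Across libraries, the lysosome genes were highest on day 7 after BCAS with the label WT. Of the 38 tested genes, 31 (81.6%) had their highest level there, against 3969 of 18123 genes (21.9%), and 24 (63.2%) had the day 7 library labelled WT first and the day 10 library labelled WT second, against 1179 of 18123 (6.51%). The 7 exceptions to the first count were *Ctsk*, *Neu1*, *Npc1*, *Smpd1*, *Scarb2*, *Tfeb* and *Mitf*. On the log2(CPM + 1) scale, the median difference from the mean of both sham libraries over the 38 genes was 0.54, 0.21 and -0.0076 in the WT-labelled libraries of days 7, 10 and 14. With the label TRPA1-KO it was 0.0028, -0.060 and 0.074. The median over all 18123 genes stayed between -0.0076 and 0.0024 in these 6 libraries. Above the sham mean lay 35, 31 and 17 of the 38 genes on days 7, 10 and 14 with the label WT, and 20, 14 and 28 with the label TRPA1-KO. Of all 18123 tested genes, 9147, 8856 and 8695 lay above it with the label WT, and 8790, 8732 and 8893 with the label TRPA1-KO. These are single libraries, so a difference between 2 days of a label has no replicate.

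**Figure D1:**
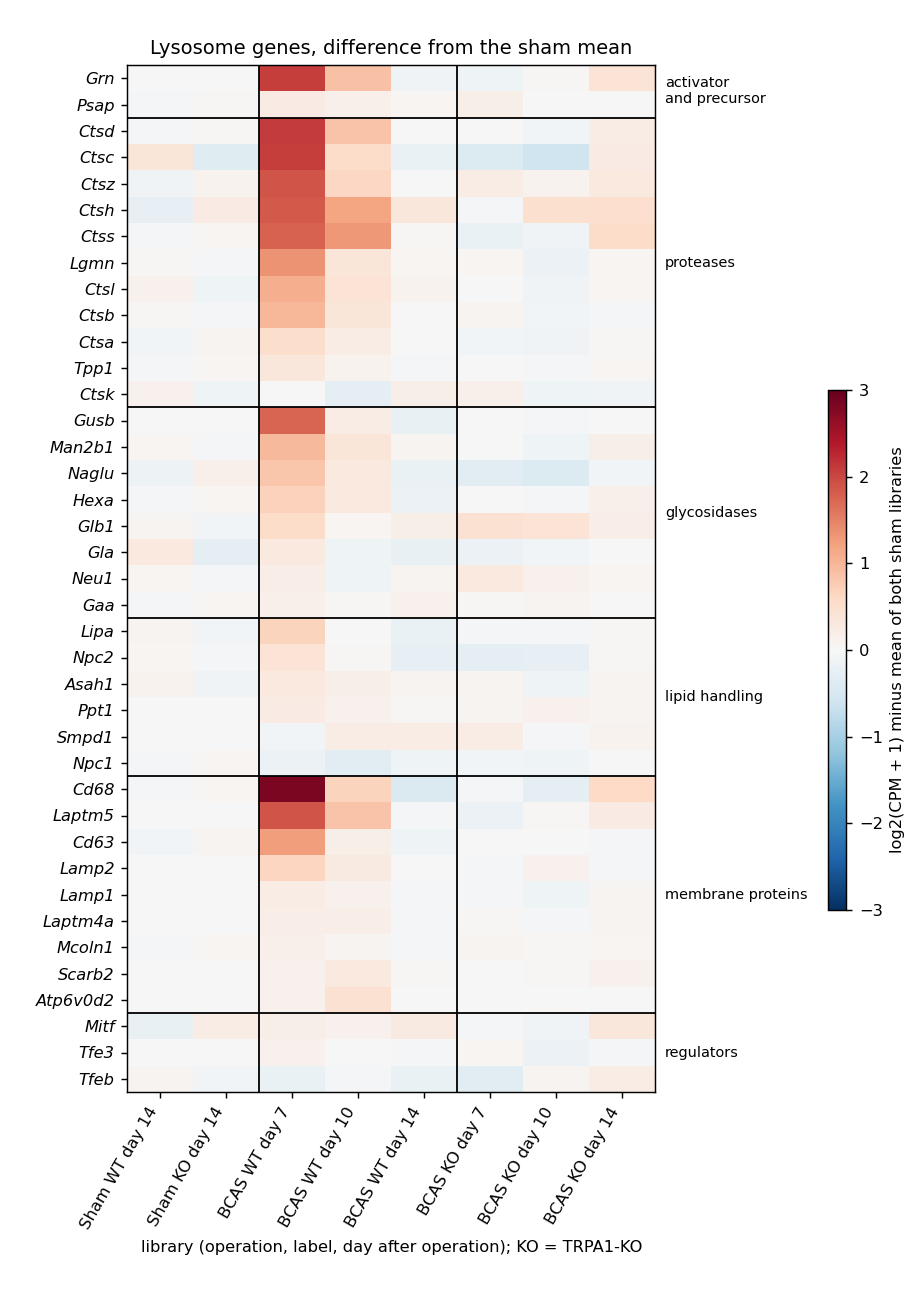
Difference of each lysosome gene from the mean of both sham libraries on the log2(CPM + 1) scale (colour) in the 8 libraries (columns; KO stands for the label TRPA1-KO), with the genes grouped by role and ordered within a role by the day 7 library labelled WT. The median over the 38 tested genes was 0.54 on day 7 and 0.21 on day 10 with the label WT and lay between -0.060 and 0.074 in the other 4 BCAS libraries, and the reddest cells are in the proteases and in *Grn*, *Cd68*, *Laptm5* and *Gusb*.

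The first comparison set the 3 BCAS libraries labelled WT against the 3 labelled TRPA1-KO. As it holds no sham library, a different response to BCAS cannot be told apart from a difference between the labels without BCAS. Of the 38 genes, 10 were called higher with the label WT and 0 lower at an unadjusted limma p under 0.05, the threshold used here for a call: *Ctsl*, *Ctss*, *Naglu*, *Ctsh*, *Ctsa*, *Man2b1*, *Ctsd*, *Laptm5*, *Lgmn* and *Ctsb*. That is 26.3% of the genes, against 2.4% of all tested genes called higher and 1.8% called lower. Of the 38 genes, 33 had a higher mean with the label WT (50.3% of all tested genes did), and the median difference was 0.21 against 0.0010 over all tested genes. The groups did not overlap for 2 genes (5.26%), *Ctsl* and *Asah1*, against 9.21% of all tested genes, so a lack of overlap was not more frequent among the lysosome genes than in general. No lysosome gene had an adjusted p under 0.05 with limma (the smallest was 0.98), edgeR or DESeq2, while 0.0166% of all tested genes did with limma. At an unadjusted p under 0.05, edgeR called 14 of the 38 and 948 of all tested genes, and DESeq2 called 7 and 595.

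The calls rested on few libraries. Without the day 7 library labelled WT, 1 gene was called (*Ctsl*) and the median difference was 0.061. Calls numbered 2 without day 10 labelled WT (*Ctsl* and *Lgmn*) and 21 without day 14 labelled WT, when *Ctss* reached an adjusted p of 0.042 with limma. Calls over all tested genes, in either direction, numbered 761 with all libraries and 617, 597 and 1846 without days 7, 10 and 14 labelled WT, so the background also rose where 21 lysosome genes were called. Leaving out the libraries labelled TRPA1-KO gave 1 call without day 7, 0 without day 10 and 7 without day 14, beside 614, 325 and 843 over all tested genes. Day by day, the median over the 38 genes of the WT-labelled level minus the TRPA1-KO-labelled level was 0.64, 0.25 and -0.11 on days 7, 10 and 14. Higher with the label WT were 34, 31 and 9 of the 38 genes, beside 9237, 8986 and 8824 of all 18123 tested genes. The sign of the median difference over the 38 genes changed between day 10 and day 14, with 1 library per label and day and no test.

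**Figure D2:**
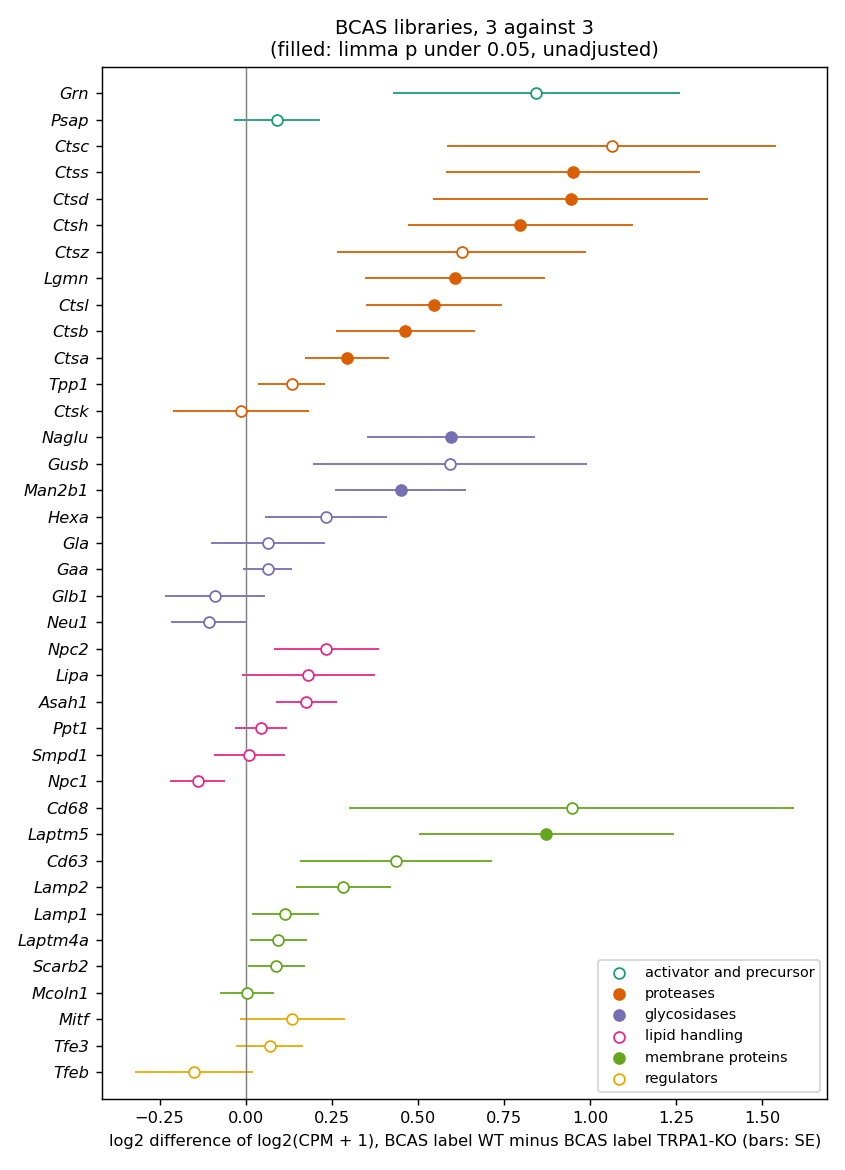
Difference between the BCAS groups (label WT minus label TRPA1-KO, 3 libraries each) for the 38 tested lysosome genes on the log2(CPM + 1) scale (points, with bars for 1 SE), coloured by role, with filled points for an unadjusted limma p under 0.05. The 10 filled points lie to the right of 0, and 7 of them are proteases.

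*Grn* encodes progranulin, a secreted precursor that is cut into granulins in the lysosome. It stood at 47.3 and 46.9 CPM in the sham libraries (WT and TRPA1-KO label), 200.1, 87.1 and 43.9 CPM in the BCAS libraries of days 7, 10 and 14 under the label WT, and 43.1, 47.9 and 62.6 CPM in those under the label TRPA1-KO. The day 7 library labelled WT was 4.25 times the sham mean and the day 10 library 1.85 times, while day 14 labelled WT lay below both sham libraries, so the BCAS groups overlapped. The difference between the BCAS groups was 0.84 (SE 0.42, limma p = 0.0698, exact permutation p = 0.3), and that between BCAS labelled WT and sham 0.95 (SE 0.44, limma p = 0.0524, exact permutation p = 0.4). The text and captions of the study do not name *Grn*. *Psap* encodes prosaposin, the precursor of the saposins that help hydrolases reach sphingolipids, and was the most abundant lysosome gene per length. Its levels were 1406 and 1458 CPM after sham, 1699, 1593 and 1496 CPM after BCAS under the label WT, and 1605, 1449.6 and 1442 CPM under the label TRPA1-KO. All 3 libraries labelled WT lay above both sham libraries, by at most 1.19 times the sham mean, and overlapped with those labelled TRPA1-KO. *Psap* differed by 0.09 (SE 0.12, limma p = 0.485, exact permutation p = 0.3) between the BCAS groups.

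The proteases had the largest differences of the roles with more than 2 genes. Their summed level was 1326 and 1329 CPM after sham, 3402, 1901 and 1344 CPM on days 7, 10 and 14 with the label WT, and 1352, 1251 and 1412 CPM under the label TRPA1-KO. Between the BCAS groups 7 of 11 were called higher, against 2.4% of all tested genes, and 10 of 11 had the higher mean with the label WT, with a median difference of 0.61. *Ctsd*, the aspartic protease cathepsin D, made up much of the sum. It stood at 273 and 291 CPM in the sham libraries (WT and TRPA1-KO label), 1209, 509.5 and 281 CPM in the BCAS libraries of days 7, 10 and 14 under the label WT, and 279, 264 and 329 CPM in those under the label TRPA1-KO. Day 7 labelled WT was 4.29 times and day 10 labelled WT 1.81 times the sham mean, and the day 14 library was within the range of sham. The difference between the BCAS groups was 0.94 (SE 0.40, limma p = 0.0401, exact permutation p = 0.2). *Ctsb*, a cysteine protease, had levels of 571 and 548 CPM after sham, 1114, 714 and 567 CPM after BCAS under the label WT, and 592, 532 and 546 CPM under the label TRPA1-KO. Its BCAS libraries labelled WT had the same order at a smaller size, with 1.99 times the sham mean on day 7 labelled WT. The difference between the BCAS groups was 0.46 for *Ctsb* (SE 0.20, limma p = 0.0451, exact permutation p = 0.2). Without the day 7 library labelled WT, the differences of *Ctsd* and *Ctsb* were 0.39 and 0.19, and neither was called.

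*Ctsl*, the cysteine protease cathepsin L, was one of the 2 genes whose BCAS groups did not overlap. It stood at 84.9 and 70.6 CPM in the sham libraries (WT and TRPA1-KO label), 165, 104 and 83.4 CPM in the BCAS libraries of days 7, 10 and 14 under the label WT, and 77.7, 71.9 and 81.3 CPM in those under the label TRPA1-KO. The group means were 117 ± 42.6 CPM (SD, n = 3) against 76.9 ± 4.74 CPM (SD, n = 3) between the BCAS labels, with an exact permutation p of 0.1, the smallest that 3 against 3 libraries can give. On the log2 scale the difference was 0.55 (SE 0.20, limma p = 0.0199, exact permutation p = 0.1), and it was 0.27 without the day 7 library labelled WT (limma p = 0.0256). *Ctss*, cathepsin S, which keeps its activity at neutral pH and is typical of microglia and other antigen-presenting cells, had levels of 50.5 and 55.4 CPM after sham, 182, 133 and 53.98 CPM after BCAS under the label WT, and 45.97, 49.01 and 78.3 CPM under the label TRPA1-KO. Days 7 and 10 labelled WT were 3.43 and 2.51 times the sham mean, and day 14 labelled TRPA1-KO was 1.48 times the sham mean, above day 14 labelled WT. The BCAS groups overlapped, with means of 123 ± 64.5 CPM (SD, n = 3) against 57.8 ± 17.9 CPM (SD, n = 3) and an exact permutation p of 0.2, and differed by 0.95 (SE 0.37, limma p = 0.0279, exact permutation p = 0.2). Without the day 7 library labelled WT the difference was 0.59 and not called.

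Among the low-level cathepsins, *Ctsh*, an aminopeptidase, stood at 5.32 and 7.86 CPM after sham, 25.9, 15.9 and 8.45 CPM after BCAS under the label WT, and 6.35, 9.5 and 9.57 CPM under the label TRPA1-KO. All 3 libraries labelled WT lay above both sham libraries, and so did 2 of the 3 labelled TRPA1-KO. The difference was 0.80 (SE 0.33, limma p = 0.0349, exact permutation p = 0.3) between the BCAS groups (0.43 and not called without day 7 labelled WT) and 1.12 (SE 0.36, limma p = 0.00944, exact permutation p = 0.2) between BCAS labelled WT and sham. *Ctsc*, which activates serine proteases of immune cells, had 9.31 and 5.18 CPM after sham, 32.5, 10.7 and 5.93 CPM after BCAS under the label WT, and 5.01, 4.27 and 8.43 CPM under the label TRPA1-KO. It was 4.49 times the sham mean on day 7 labelled WT, the largest ratio among the proteases, and its 2 sham libraries themselves lay far apart. *Ctsc* missed the call between the BCAS groups at 1.06 (SE 0.48, limma p = 0.0508, exact permutation p = 0.2). *Ctsz*, a carboxypeptidase, stood at 29.9 and 34.3 CPM after sham, 121, 49.9 and 32.1 CPM after BCAS under the label WT, and 37.6, 34.8 and 39.4 CPM under the label TRPA1-KO. Day 7 labelled WT was 3.77 times the sham mean, and the 3 libraries labelled TRPA1-KO also lay above both sham libraries, by at most 1.23 times their mean.

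*Lgmn*, the asparagine-specific protease legumain that matures cathepsins, stood at 109 and 105 CPM after sham, 274, 137 and 112 CPM after BCAS under the label WT, and 111, 94.4 and 112 CPM under the label TRPA1-KO. The day 7 and day 10 libraries labelled WT were 2.56 and 1.28 times the sham mean, and the difference between the BCAS groups was 0.61 (SE 0.26, limma p = 0.0425, exact permutation p = 0.2). Without the day 7 library labelled WT it was 0.23 and not called. *Ctsa*, which protects the galactosidase *Glb1* and the sialidase *Neu1* in a complex, had levels of 115 and 128 CPM after sham, 176, 141 and 120.3 CPM after BCAS under the label WT, and 115, 113 and 124 CPM under the label TRPA1-KO. Day 7 labelled WT was 1.45 times the sham mean, the smallest ratio of the 7 called proteases, with a difference between the BCAS groups of 0.29 (SE 0.12, limma p = 0.0364, exact permutation p = 0.2), and of 0.15 and not called without that library. The remaining proteases were not called in any comparison: *Ctsk*, best known from osteoclasts, ranged from 4.28 to 6.25 CPM over the 8 libraries, and *Tpp1*, a tripeptidyl peptidase, from 73.2 to 96.7 CPM. *Ctsk* was the one protease without its highest level on day 7 labelled WT. Of the exon bases of *Ctsd*, 34.4% are shared with a same-strand gene model (*Gm49369*), and 26.8% of those of *Ctsl* overlap an antisense gene. How reads in shared bases were assigned, and whether strand was used, is not given in the sources used here, so the values of these genes are uncertain to that extent.

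**Figure D3:**
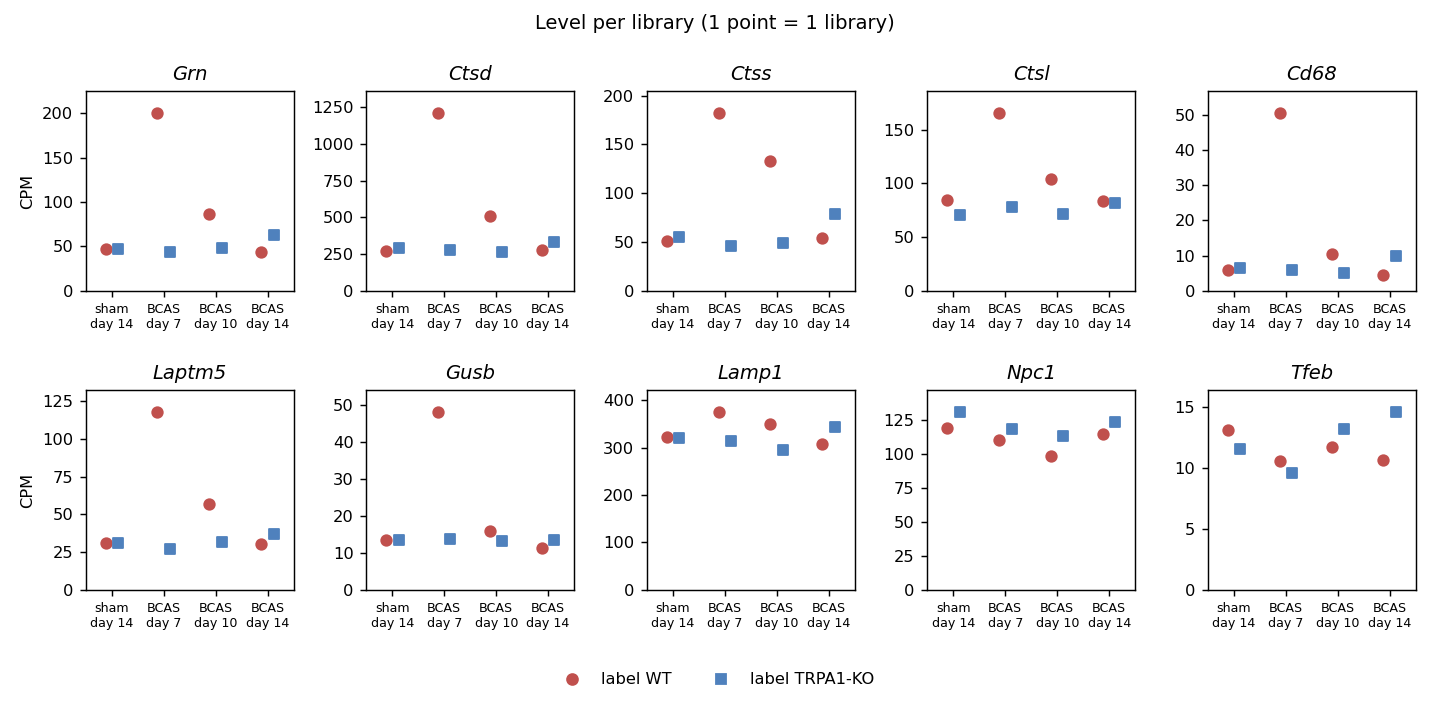
Level in CPM (vertical axes, each from 0) of 10 lysosome genes in sham on day 14 and in BCAS on days 7, 10 and 14, with 1 point per library, circles for the label WT and squares for the label TRPA1-KO. For *Grn*, *Ctsd*, *Ctss*, *Ctsl*, *Cd68*, *Laptm5* and *Gusb* the day 7 circle is the highest point and the day 10 circle the second, and *Npc1* has its lowest point on day 10 with the label WT.

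Of the 8 glycosidases, 2 were called higher between the BCAS groups, against 2.4% of all tested genes, and the median difference was 0.15. *Man2b1*, an acid mannosidase, stood at 56.7 and 52.7 CPM in the sham libraries (WT and TRPA1-KO label), 108, 70.6 and 57.6 CPM in the BCAS libraries of days 7, 10 and 14 under the label WT, and 55.5, 49.8 and 61.6 CPM in those under the label TRPA1-KO. Each library labelled WT lay above both sham libraries, with 1.98 times the sham mean on day 7, and the difference between the BCAS groups was 0.45 (SE 0.19, limma p = 0.0394, exact permutation p = 0.2). *Naglu*, which removes N-acetylglucosamine from heparan sulfate, had levels of 8.92 and 11.3 CPM after sham, 18.8, 12.6 and 8.67 CPM after BCAS under the label WT, and 7.68, 7.26 and 9.47 CPM under the label TRPA1-KO. Day 7 labelled WT was 1.85 times the sham mean, day 14 labelled WT lay below both sham libraries, and the difference between the BCAS groups was 0.60 (SE 0.24, limma p = 0.0345, exact permutation p = 0.2). Without the day 7 library labelled WT, the differences of *Man2b1* and *Naglu* were 0.20 and 0.34, and neither was called. *Gusb*, the beta-glucuronidase, stood out in 1 library, with 13.5 and 13.5 CPM after sham, 48.02, 16.01 and 11.4 CPM after BCAS under the label WT, and 13.7, 13.1 and 13.5 CPM under the label TRPA1-KO. Day 7 labelled WT was 3.55 times the sham mean, and the other 7 libraries lay within 11.4 to 16.01 CPM. Its difference between the BCAS groups was 0.59 (SE 0.40, limma p = 0.167, exact permutation p = 0.5).

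*Hexa*, a subunit of the hexosaminidase that degrades gangliosides, stood at 48.8 and 52.5 CPM after sham, 81.99, 62.4 and 44.8 CPM after BCAS under the label WT, and 51.3, 48.6 and 56.2 CPM under the label TRPA1-KO. The order of the libraries labelled WT was again day 7, day 10 and day 14, and the difference between the BCAS groups was 0.23 (SE 0.18, limma p = 0.217, exact permutation p = 0.5). *Glb1*, the galactosidase that starts ganglioside breakdown, had 17.7 and 15.6 CPM after sham, 24.9, 17.4 and 18.98 CPM after BCAS under the label WT, and 23.04, 22.4 and 19.4 CPM under the label TRPA1-KO. Here the libraries labelled TRPA1-KO all lay above both sham libraries, and day 10 labelled WT lay between the sham libraries. *Neu1*, a sialidase, stood at 39.3 and 36.4 CPM after sham, 43.6, 34.3 and 40.2 CPM after BCAS under the label WT, and 46.2, 41.7 and 39.1 CPM under the label TRPA1-KO, with day 7 labelled TRPA1-KO highest. The remaining glycosidases were not called in any comparison. *Gaa*, which degrades glycogen, ranged from 220.3 to 253 CPM, and *Gla*, the alpha-galactosidase, from 10.9 to 16.9 CPM.

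The 6 genes of lipid handling differed little, with a median difference of 0.11 between the BCAS groups and no call. *Npc1* and *Npc2* act in sequence to export cholesterol from the lysosome. *Npc1*, the membrane protein of this pair, stood at 119 and 131 CPM in the sham libraries (WT and TRPA1-KO label), 110.3, 98.4 and 115 CPM in the BCAS libraries of days 7, 10 and 14 under the label WT, and 119, 114 and 124 CPM in those under the label TRPA1-KO. All 3 BCAS libraries labelled WT lay below both sham libraries, with day 10 lowest, and the difference from sham was -0.21 (SE 0.087, limma p = 0.0321, exact permutation p = 0.2). It was -0.14 and not called without the sham library labelled TRPA1-KO, and -0.15 and not called without day 10 labelled WT. *Npc2*, the luminal partner, had levels of 59.5 and 54.6 CPM after sham, 75.9, 58.9 and 48.1 CPM after BCAS under the label WT, and 46.2, 48.3 and 58.6 CPM under the label TRPA1-KO. It was 1.33 times the sham mean on day 7 labelled WT, the other direction from *Npc1*, and its difference between the BCAS groups was 0.23 (SE 0.15, limma p = 0.157, exact permutation p = 0.3). *Asah1*, an acid ceramidase, stood at 60.8 and 52.7 CPM after sham, 69.8, 64.02 and 60.5 CPM after BCAS under the label WT, and 59.7, 52 and 60.03 CPM under the label TRPA1-KO. Its BCAS groups did not overlap, but the lowest library labelled WT and the highest labelled TRPA1-KO were close, and the difference was 0.18 (SE 0.089, limma p = 0.0767, exact permutation p = 0.1).

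*Ppt1*, which removes fatty acids from proteins, had 102 and 99.4 CPM after sham, 119.8, 111 and 104 CPM after BCAS under the label WT, and 108, 109.9 and 106 CPM under the label TRPA1-KO. All 6 BCAS libraries lay above both sham libraries, by at most 1.19 times the sham mean, and the difference from sham was 0.14 (SE 0.078, limma p = 0.0918, exact permutation p = 0.2) with the label WT and 0.099 (SE 0.078, limma p = 0.229, exact permutation p = 0.1) with the label TRPA1-KO. *Lipa*, the acid lipase for cholesteryl esters, ranged from 20.4 to 37.9 CPM, with day 7 labelled WT highest. *Smpd1*, the acid sphingomyelinase, ranged from 81.2 to 102 CPM, with day 7 labelled WT lowest.

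Of the 8 tested membrane proteins, 1 was called higher between the BCAS groups, against 2.4% of all tested genes, and 8 of 8 had the higher mean with the label WT, with a median difference of 0.20. *Cd68*, a glycoprotein of macrophage lysosomes, stood at 5.95 and 6.52 CPM in the sham libraries (WT and TRPA1-KO label), 50.5, 10.5 and 4.39 CPM in the BCAS libraries of days 7, 10 and 14 under the label WT, and 5.9, 4.91 and 9.88 CPM in those under the label TRPA1-KO. Day 7 labelled WT was 8.1 times the sham mean, the largest ratio of any lysosome gene in any library, day 10 labelled WT was 1.68 times and day 14 labelled TRPA1-KO 1.59 times the sham mean. With day 14 labelled WT the lowest of the 8 libraries, the BCAS groups overlapped and the difference was 0.95 (SE 0.65, limma p = 0.174, exact permutation p = 0.6). *Laptm5*, a transmembrane protein of blood-lineage cells including microglia, had levels of 31.1 and 30.7 CPM after sham, 118, 56.7 and 30.2 CPM after BCAS under the label WT, and 27.2, 31.7 and 36.7 CPM under the label TRPA1-KO. Days 7 and 10 labelled WT were 3.81 and 1.84 times the sham mean, and the difference between the BCAS groups was 0.87 (SE 0.37, limma p = 0.0404, exact permutation p = 0.3), and 0.38 and not called without day 7 labelled WT. *Lamp1*, the abundant structural protein of the lysosomal membrane in most cells, stood at 323 and 319.7 CPM after sham, 374, 349 and 307 CPM after BCAS under the label WT, and 313, 294 and 343 CPM under the label TRPA1-KO. It was 1.16 times the sham mean on day 7 labelled WT, lowest on day 10 labelled TRPA1-KO, and differed by 0.12 (SE 0.097, limma p = 0.261, exact permutation p = 0.4) between the BCAS groups.

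The other membrane proteins were not called in any comparison. *Cd63*, a tetraspanin, and *Lamp2*, the partner of *Lamp1*, had their highest level on day 7 labelled WT, at 2.42 and 1.57 times the sham mean. Over the 8 libraries, *Cd63* ranged from 31.8 to 85.02 CPM and *Lamp2* from 91.9 to 147 CPM. The levels of *Laptm4a* (149 to 176 CPM), *Scarb2*, a transport receptor (162 to 199.9 CPM), and *Mcoln1*, a calcium channel (63.7 to 73.99 CPM), moved within narrower ranges. *Atp6v0d2*, a proton pump subunit of osteoclasts and macrophages, had 1 read on day 7 and 3 reads on day 10 with the label WT and 0 reads in the other 6 libraries, at or under the floor of 3 reads throughout.

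The regulators did not share one order of libraries. *Tfeb* stood at 13.1 and 11.6 CPM in the sham libraries (WT and TRPA1-KO label), 10.6, 11.7 and 10.6 CPM in the BCAS libraries of days 7, 10 and 14 under the label WT, and 9.57, 13.2 and 14.6 CPM in those under the label TRPA1-KO. The day 7 library was the lowest of its label with the label TRPA1-KO and close to day 14 with the label WT, and the difference between the BCAS groups was -0.15 (SE 0.17, limma p = 0.403, exact permutation p = 0.4). *Mitf*, the family member best known from pigment cells and osteoclasts, had levels of 10.5 and 14.6 CPM after sham, 14.1, 13.7 and 15.3 CPM after BCAS under the label WT, and 11.9, 11.5 and 15.9 CPM under the label TRPA1-KO. Its lowest library was sham labelled WT and its highest day 14 labelled TRPA1-KO, and it differed by 0.14 (SE 0.15, limma p = 0.398, exact permutation p = 0.4). *Tfe3* stood at 37.2 and 36.4 CPM after sham, 40.5, 36.4 and 35.7 CPM after BCAS under the label WT, and 38.6, 32.6 and 36 CPM under the label TRPA1-KO. Its BCAS libraries labelled WT had the order of the proteases over a narrow range, with day 7 the highest of all 8 libraries. Unlike the summed proteases, days 10 and 14 labelled WT did not lie above sham. The difference between the BCAS groups was 0.07 (SE 0.097, limma p = 0.491, exact permutation p = 0.5). None of the 3 was called in any of the 4 comparisons. The values are of RNA and do not show where in the cell a factor was.

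Against sham, the 3 BCAS libraries labelled WT were set against both sham libraries, and those labelled TRPA1-KO against the same 2. With the label WT, 7 of the 38 genes (18.4%) were called higher, against 2.44% of all tested genes: *Ctsh*, *Ctss*, *Ctsl*, *Ctsd*, *Man2b1*, *Laptm5* and *Ctsz*. Of the 38, 1 gene, *Npc1*, was called lower, against 3.01% of all tested genes. The differences were 1.03 (SE 0.39, limma p = 0.0217, exact permutation p = 0.3) for *Ctss*, 0.54 (SE 0.21, limma p = 0.0282, exact permutation p = 0.3) for *Ctsl* and 0.98 (SE 0.42, limma p = 0.0383, exact permutation p = 0.3) for *Ctsd*. *Man2b1* differed by 0.47 (SE 0.20, limma p = 0.0386, exact permutation p = 0.2), *Laptm5* by 0.91 (SE 0.39, limma p = 0.0393, exact permutation p = 0.4) and *Ctsz* by 0.84 (SE 0.38, limma p = 0.0496, exact permutation p = 0.3). A higher mean than sham was found in 34 of 38 genes (49.6% of all tested genes had one), with a median difference of 0.22. The groups did not overlap for 7 genes (18.4%), close to the 19.9% of all tested genes. The share of all tested genes with an adjusted p under 0.05 was 0%, and the smallest adjusted p of a lysosome gene was 0.87 (limma). At an unadjusted p under 0.05, edgeR called 13 of the 38 and 1229 of all tested genes, and DESeq2 called 8 and 822. No lysosome gene had an adjusted p under 0.05 with either, while DESeq2 gave one to 24 of all tested genes and edgeR to 0.

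With the label TRPA1-KO, 1 of the 38 genes (2.63%) was called higher than sham and 0 lower, against 1.07% and 1.67% of all tested genes, which is too few to set apart from the background. The gene was *Glb1*, with a difference of 0.36 (SE 0.16, limma p = 0.0456, exact permutation p = 0.2), and the next in order were *Neu1* at 0.16 (SE 0.12, limma p = 0.203, exact permutation p = 0.3) and *Ppt1* at 0.099 (SE 0.078, limma p = 0.229, exact permutation p = 0.1). The median difference over the 38 genes was 0.021, with 21 higher (49.4% of all tested genes were). The groups did not overlap for 4 genes (10.5%) against 18.6% of all tested genes. An adjusted p under 0.05 was found for 0.00552% of all tested genes and for no lysosome gene with limma, edgeR (1 of the 38 and 517 of all tested genes at an unadjusted p under 0.05) or DESeq2 (0 of the 38 and 254 of all). Both comparisons use the same 2 sham libraries, so they are not independent of each other.

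The counts against sham also moved with single libraries. With the label WT, 4 genes were called without its day 7 library, 5 without day 10 and 22 without day 14, when *Ctss* reached an adjusted p of 0.018 with limma. Over all tested genes, 988 were called with all libraries and 959, 830 and 2013 in these 3 fits. Without the day 7 library labelled WT, the differences were 0.42 for *Ctsd*, 0.67 for *Ctss*, 0.31 for *Ctsz*, 0.22 for *Man2b1* and 0.41 for *Laptm5*, none of them called, and 0.75 for *Ctsh* and 0.26 for *Ctsl*, both called. Leaving out the sham library labelled WT gave 3 calls and that labelled TRPA1-KO 1 call (*Ctsh*), beside 745 and 357 over all tested genes. Leaving out day 7 or day 10 labelled TRPA1-KO, which enter this fit through the shared spread, gave 4 and 5 calls, beside 938 and 820. With the label TRPA1-KO, the call of *Glb1* was lost without either sham library and without day 7 or day 10 of its label. Markers of striatal neurons, which lie next to the corpus callosum, were lower in BCAS than in sham, with a summed level over 9 genes of 1694 and 2285 CPM after sham and 868 to 1536 CPM after BCAS, and 12 oligodendrocyte genes summed to 0.78 to 0.88 of the sham mean. The part of these shifts in the comparisons with sham was not tested.

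The last comparison joined sham and BCAS and set the 4 libraries of one label against the 4 of the other. Called higher were 4 of the 38 genes (10.5%), against 2.11% of all tested genes, and 0 were called lower, against 1.83%. They were *Ctsl* at 0.48 (SE 0.17, limma p = 0.0168, exact permutation p = 0.0286), *Ctsc* at 0.98 (SE 0.38, limma p = 0.025, exact permutation p = 0.0571), *Asah1* at 0.18 (SE 0.073, limma p = 0.0286, exact permutation p = 0.0286) and *Man2b1* at 0.36 (SE 0.17, limma p = 0.0496, exact permutation p = 0.114). The groups did not overlap for *Ctsl* and *Asah1* (5.26% of the lysosome genes, against 2.46% of all tested genes). The means of *Ctsl* were 109 ± 38.4 CPM (SD, n = 4) against 75.3 ± 5.01 CPM (SD, n = 4), with an exact permutation p of 0.0286, the smallest that 4 against 4 libraries can give. For *Asah1* they were 63.8 ± 4.34 CPM (SD, n = 4) against 56.1 ± 4.33 CPM (SD, n = 4), with the same exact permutation p. The median difference over the 38 genes was 0.18, with 32 higher (50.7% of all tested genes were). An adjusted p under 0.05 was found for 0.0497% of all tested genes and for no lysosome gene with limma, edgeR (11 of the 38 and 863 of all tested genes at an unadjusted p under 0.05) or DESeq2 (4 of the 38 and 623 of all). Calls numbered 2 without day 7, 2 without day 10 and 13 without day 14 labelled WT, 2 without day 7 and 2 without day 10 labelled TRPA1-KO, 14 without sham labelled WT and 1 (*Ctsl*) without sham labelled TRPA1-KO. Over all tested genes, calls numbered 714 with all libraries and 708, 552, 1064, 823, 490, 1053 and 585 in these 7 fits. Without day 7 labelled WT, the differences were 0.26 for *Ctsl* and 0.52 for *Ctsc*, both called, and 0.16 for *Man2b1* and 0.14 for *Asah1*, neither called.

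Further genes of the lysosome and its supply were counted from lists of known function. Of 31 other lysosomal hydrolases and cofactors, 3 were called higher between the BCAS groups, against 2.4% of all tested genes, and 0 lower, with a median difference of 0.087. Among them were *Gm2a*, the ganglioside activator, at 0.24 (SE 0.092) and *Dnase2a*, the acid nuclease, at 0.72 (SE 0.31), each with a limma adjusted p of 0.98. Against sham with the label WT, *Gm2a* was called higher at 0.28 and *Mfsd8* lower at -0.30. Of 17 genes of the vacuolar proton pump, 0 were called by limma in any of the 4 comparisons, and their median difference between the BCAS groups was 0.0033. None of 18 genes that dock mTORC1 at the lysosome and none of 9 genes of the mannose 6-phosphate and sorting route was called between the BCAS groups, with medians of -0.016 and 0.0033, and among them *Rragd* was called lower in BCAS labelled WT than in sham, at -0.24. Of 15 autophagy genes, *Becn1* was called lower between the BCAS groups, at -0.20 (SE 0.081, limma adjusted p = 0.98), with a median over the list of -0.032. In the comparison of all libraries by label, the autophagy gene *Map1lc3a* was called lower at -0.22.

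**Figure D4:**
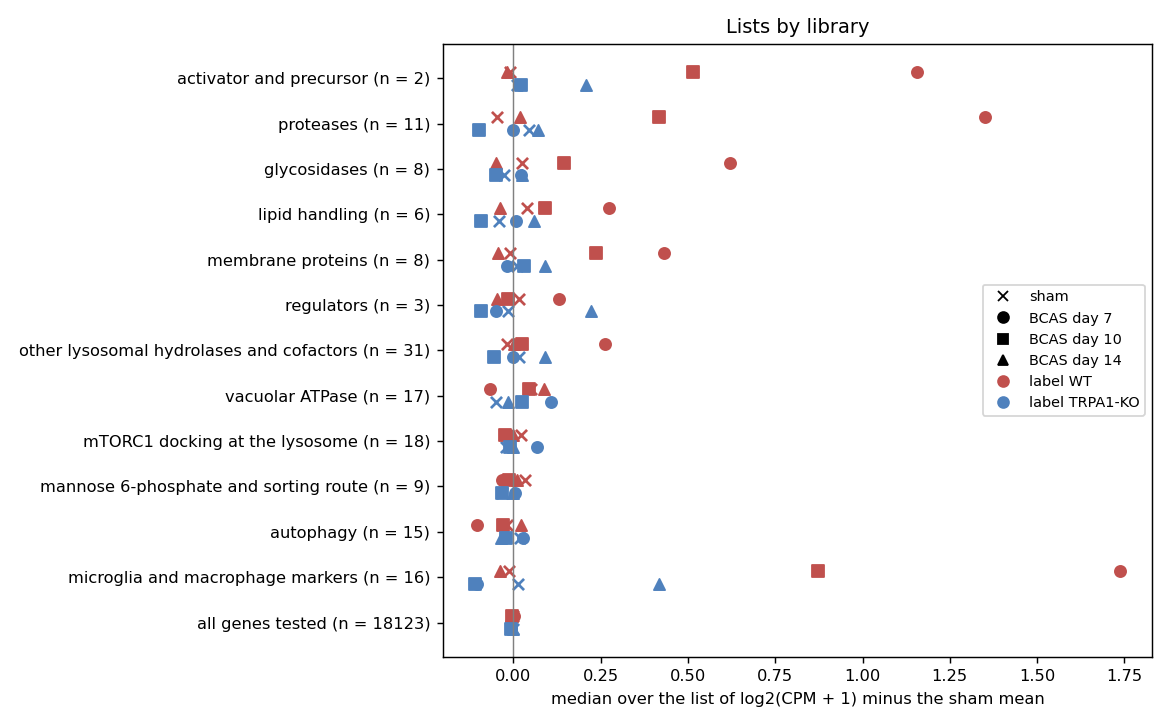
Median over each list of the difference from the sham mean on the log2(CPM + 1) scale (horizontal axis) in the 8 libraries, with colour for the label and the point's shape for sham and the day after BCAS, for the 6 roles of the lysosome genes, 5 lists of related genes, 16 microglia and macrophage markers and all tested genes. The day 7 point labelled WT lies at 1.35 for the proteases and 1.74 for the microglia and macrophage markers, and between -0.10 and 0.26 for the 5 lists of related genes.

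Markers of microglia had the order of the lysosome genes in the BCAS libraries labelled WT, as did those of astrocytes over a smaller range. The summed level of 16 microglia and macrophage markers, none of which is a lysosome gene of the set, was 477 and 493 CPM after sham, 1531, 835 and 469.5 CPM on days 7, 10 and 14 with the label WT, and 445, 461 and 643 CPM under the label TRPA1-KO. This is 3.16, 1.72 and 0.967 times the sham mean with the label WT and 0.917, 0.951 and 1.32 times with the label TRPA1-KO. All 16 had the higher mean with the label WT between the BCAS groups (50.3% of all tested genes did). Of the 16, 5 were called higher (*Tmem119*, *Csf1r*, *Itgam*, *Gpr34* and *Olfml3*), against 2.4% of all tested genes, and the median difference was 0.74. No marker of the list was at 0 in any library, and the lowest value was 3.45 CPM for *Aif1*. The summed markers of microglia and the summed proteases had the same order of BCAS libraries labelled WT. For both, the day 14 library labelled TRPA1-KO was the highest BCAS library of its label. The other 2 differed in order: day 7 labelled TRPA1-KO was the lowest for the markers but above day 10 for the proteases (1352 against 1251 CPM). Summed over the 38 lysosome genes, day 7 was the highest of that label, with 4826 CPM against 4532 and 4817 CPM on days 10 and 14. In the day 14 library labelled TRPA1-KO, 15 of 16 markers, 5 of 11 proteases and 19 of 38 lysosome genes lay above both sham libraries, against 5984 of 18123 tested genes. How much of the difference in lysosome genes follows the amount of microglial RNA was not tested.

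Markers of other cell types did not share one pattern, and those of astrocytes resembled the microglia markers in their order of BCAS libraries. Of 10 markers of border macrophages and infiltrating myeloid cells, 9 were tested, with 0 called between the BCAS groups. Their sum was 8.15 to 10.6 CPM after sham. On days 7, 10 and 14 it was 14.1, 10.2 and 7.35 CPM with the label WT and 6.35, 6.30 and 10.2 CPM with the label TRPA1-KO. Against sham with the label WT, 6 had a higher and 3 a lower mean, and *Cd163* was called lower at -0.63. The sum over 10 astrocyte markers was 1.30, 1.22 and 0.997 times the sham mean on days 7, 10 and 14 labelled WT. With the label TRPA1-KO it was 0.929, 0.968 and 1.20 times, so the 6 BCAS libraries had the order seen for the microglia markers. Between the BCAS groups 1 astrocyte marker was called higher (*Aldh1l1*). The largest single difference was 1.43 (*Gfap*, not called), above those of the microglia markers. Endothelial markers were 1.15 and 1.10 times the sham mean on days 7 and 10 labelled WT, and 2 of 8 were called higher (*Pecam1* and *Ly6c1*). Of 8 genes of oligodendrocyte precursors, 2 were called higher (*Gpr17* and *Vcan*), and of 12 oligodendrocyte and myelin genes, *Mog* was called higher at 0.51 (SE 0.077, limma adjusted p = 0.16) and *Opalin* lower at -0.29 (SE 0.10, limma adjusted p = 0.98). The 9 striatal markers were all lower with the label WT, with a median difference of -0.31 and 1 called (*Penk*), and their sums, 0.436 to 0.772 times the sham mean, lay further from sham than those of the microglia markers in 3 of the 6 BCAS libraries (day 14 labelled WT and days 7 and 10 labelled TRPA1-KO). None of 8 ependymal and choroid plexus markers was called between the BCAS groups, and their sums in the BCAS libraries were 0.740 to 1.26 times the sham mean. Against sham, *Clic6* was called lower with the label WT at -0.54 and *Kl* higher with the label TRPA1-KO at 0.51. Sums over precursors of oligodendrocytes (8 genes), pericytes and smooth muscle (7) and cortical neurons (8) lay between 0.805 and 1.14 times the sham mean in all 6 BCAS libraries.

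Levels between genes were compared per length, as CPM per kilobase of the union of annotated exons in GENCODE M21 (GRCm38), as the mean of both sham libraries. *Psap* was highest at 522 CPM per kilobase, followed by *Lamp1* and *Ctsd* at 120.1 and 119.8, which cannot be ranked given that their 2 sham libraries overlap, *Ctsb* at 92.4 and *Laptm4a* at 86.3. The lowest above 0 were *Ctsc* at 1.25 and *Ctsh* at 1.47, with the regulators *Mitf* at 2.02 and *Tfeb* at 2.18 CPM per kilobase. On day 7 labelled WT, *Ctsd* reached 514 CPM per kilobase, against 619 for *Psap*, and *Ctss* was at 133.9, against a sham mean of 38.99. *Ctsd* lies at chr7:142375911-142388038 on the minus strand, *Grn* at chr11:102430315-102437048 on the plus strand, *Ctss* at chr3:95526786-95556403 on the plus strand and *Cd68* at chr11:69664213-69666153 on the minus strand. Of the 39 genes, 11 share exon bases with another annotated gene.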

How the data were processed

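RNA of the corpus callosum was measured in 8 libraries (2 sham, 6 BCAS). The authors selected polyadenylated RNA, used HISAT version 2.1.0 for mapping to GRCm38, subread version 2.0.1 for counting and edgeR version 3.34.1 for scaling, while annotation and strand setting are not given in the sources used here. The deposited signal is a CPM value relative to edgeR's effective library size, without a log, and was recorded as a signal because its sums (966202 to 1022160) are not fixed. Dividing by the value of 1 read gave whole numbers for 100% of the entries (tolerance 0.01), so whole reads were recovered.

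Libraries were grouped by their labels for genotype, operation and day. Values were tested as log2(CPM + 1), which understates the change of low genes, with limma (version 3.58.1, trend on the mean; R version 4.3.3), over the 18123 of 25239 genes whose mean reached 0.1 CPM. The contrasts against sham came from a joint fit of the 8 libraries. A call is an unadjusted p under 0.05, and p-values were also adjusted over all tested genes by the Benjamini-Hochberg method. Single genes were also tested with two-sided exact permutation tests, in which 3 against 3 and 3 against 2 libraries cannot go below 0.1. With 1 library per label and day, p-values measure the spread between these libraries only.

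The genes, lists and tests were chosen with earlier results of these data known. Every lysosome gene is named, with all 8 values where it was called in any comparison, was among the 3 smallest p-values of a comparison with fewer calls, or was one of 14 genes listed for full description, and otherwise by range; list genes are named where called, apart from some that are not reported here. Alternatives were a pseudocount of 0.1, no filter, a filter at 1 CPM, equal library medians, limma's robust option, edgeR version 4.0.16 and DESeq2 version 1.42.0 on the reads, each library left out, the day as a replicate block, a joint fit of the 8 libraries and the day 14 libraries alone. On simulated counts for the comparison of the BCAS groups (18123 genes, 200 changed 4-fold), limma, edgeR and DESeq2 each recovered 100% of the changed genes at an adjusted p under 0.05. Of the unchanged ones, 4.84%, 4.82% and 3.41% had a p under 0.05. The simulation changed only genes of higher level, with the same spread setting for every gene and no differences between days. Recovery of smaller changes, or with the spread between days seen here, was not simulated.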

Additional observations from a re-analysis of the deposited data

Results flagged for a closer look

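In the comparison of all libraries by label, 2 values set a single library apart for a lysosome gene, both on day 7 after BCAS with the label TRPA1-KO. For *Psap*, the gap between this library (1605 CPM) and the next, divided by the range of the 4 libraries labelled TRPA1-KO on the log2(CPM + 1) scale, was 0.897. For *Ctsk* (6.23 CPM) it was 0.915. Among the 38 lysosome genes, 2 such values were found with the label TRPA1-KO and 0 with the label WT, against 6.01% and 6.12% of all 18123 tested genes, and chance gives about 1 in 20 groups.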

How the results depend on the processing

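The median differences over the 38 genes kept their sign and moved by less than the spread between libraries under every alternative with all libraries. That spread was the SD of the medians of single libraries, a wide margin. Between the BCAS groups, the fall from 0.21 to 0.061 without day 7 labelled WT also lay within it. The filters, the robust option, the day block and the joint fit leave the size of each difference as it is, so they could not move the median. The counts of calls, all from unadjusted p-values near the threshold, changed with the alternative. Between the BCAS groups (10 calls), no filter on low genes gave 0 and limma's robust option 2. Over all genes in the fit, calls numbered 761 with the main settings, 952 with no filter and 714 with the robust option. For BCAS labelled WT against sham (8 calls), no filter gave 4, the robust option 2 and edgeR 13. Over all genes in the fit, calls numbered 988 with the main settings, 1081 with no filter, 948 with the robust option and 1229 with edgeR. With the day 14 libraries alone, a single BCAS library is assumed to vary like the sham libraries. There *Ctsd* and *Laptm5* were lower than sham by -0.0044 and -0.032, the only reversed values among 358 single results. Of these results, 220 kept their call and 136 lost it. For BCAS labelled TRPA1-KO against sham (1 call), no filter and DESeq2 gave 0 and the day 14 libraries, with the same assumption, 3. For all libraries by label (4 calls), the robust option gave 1 and edgeR 11. Leaving out 1 library gave 0 to 21 calls and a median of 0.061 to 0.37 between the BCAS groups, 1 to 22 calls and 0.11 to 0.32 for the label WT against sham, 0 to 1 call and -0.039 to 0.048 for the label TRPA1-KO against sham, and 1 to 14 calls and 0.048 to 0.28 for all libraries by label; where it left 1 sham library, that library was assumed to vary like the other groups. With the day as a replicate block, 10 genes were called between the BCAS groups, beside 632 over all tested genes, and 7 in all libraries by label. The days do not pair mice, and the deviations of same-day libraries did not go together (correlations of -0.10, 0.0051 and -0.26 on days 7, 10 and 14 over 10744 genes). The cause of these differences between alternatives was not tested. With 1 library per label and day, a difference between days cannot be separated from one between samples, and genes of few reads such as *Atp6v0d2* could not be tested at this depth.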
